A study of Mus musculus with 15 samples.

Results

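The transcriptional response of bone marrow-derived macrophages (BMDMs) to poly(I:C) was read from 10 of the 15 RNA-seq libraries of the series, 5 of poly(I:C)-treated cells and 5 of control cells, which were chosen by their labels alone, and it covers all 11804 genes with enough reads to be tested. The treated cells had received 10 µg/ml poly(I:C) for 6 h, and for the control cells the labels name no agent. All cells came from tibia and femur marrow of adult wild-type C57BL/6 mice and had been grown for 6 days with 20% L929-conditioned medium, a source of the growth factor CSF-1, so that treated and control cells alike had been exposed to it. The study used mice of either sex at random, and the sex behind each library is not stated here. The other 5 libraries, from BMDMs given 4 µM CL075 for 6 h, a small-molecule agonist of the single-stranded RNA receptors TLR7 and TLR8, are used only to show where the poly(I:C) response was different. The labels do not say whether the 5 libraries of a group came from separate mice or cultures, and the series' design text speaks of triplicates, so the p-values measure the spread between these libraries, which may be technical.

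Poly(I:C) is a synthetic double-stranded RNA that stands in for the replication products of viruses. In the endosome it is bound by TLR3, which signals through the adaptor TRIF, and in the cytosol by the helicases RIG-I and MDA5, which signal through MAVS on mitochondria. Both routes activate the transcription factors IRF3 and NF-κB and switch on the gene of interferon-β, and the secreted interferon then acts back on the cells through its receptor, Janus kinases and STAT factors to raise a broad set of interferon-stimulated genes. In macrophages this programme blocks viral replication, calls in lymphocytes by chemokines and prepares antigen presentation.

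The libraries held 26530525 to 32487565 gene counts in the poly(I:C) group and 25661175 to 31159953 in the control group. The cells fitted their label. Transcripts of 14 macrophage markers made up 3.13% of the counts in poly(I:C) libraries and 5.33% in control libraries. Lyz2 alone held 1.77% and 3.37%. The shares were 0.0260% and 0.0190% for 13 neutrophil markers and 0.0333% and 0.0212% for 11 dendritic cell markers. They were 0.0049% and 0.0068% for 11 T and NK cell markers and 0.00029% and 0.0017% for 7 B cell markers. In bulk RNA, fewer cells of a type and less RNA per cell cannot be told apart. Levels below are CPM, read counts scaled to a common library size by trimmed means (TMM), and fold changes are poly(I:C) over control unless the sentence names CL075. The TMM factors were 0.683 to 0.721 in poly(I:C) libraries and 1.326 to 1.382 in control libraries, so a fold change here is relative to the middle of all tested genes, whose median log2 fold change was -0.08. On that scale 8 of 14 tested macrophage markers were higher and none was lower, whereas with library totals 1 was higher and 6 were lower.

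A gene was called when its adjusted p in edgeR's quasi-likelihood test was under 0.05, its fold over 1.5 and its mean TPM (the unit of the deposited tables that is scaled by transcript length and depth) over 0.5 in poly(I:C) or control cells. On this rule 3002 genes were higher (25.4% of those tested) and 3597 were lower (30.5%). Counts over gene groups below are to be read beside these shares, and a count near them is no result about the group. With library totals as the only scaling the split was 1546 higher and 7663 lower, and with upper-quartile factors it was 2337 higher and 4890 lower. With library totals the middle of all genes lay at log2 -1.02, and with upper-quartile factors at log2 -0.41. Of the genes named below as higher, Cd80, Cxcl1, Il1b, Mertk, Nfkbiz and Tmem173 were no longer called with library totals. Of 104 counts of higher or lower genes over the gene groups, 62 moved by more than 1.5 times with library totals. On the TMM scale the rise was steeper than the fall: 1165 genes rose over 4-fold and 705 fell over 4-fold. Over 32-fold 242 rose and 18 fell, and over 256-fold 64 rose and 1 fell. These classes were counted on that scale alone. With library totals, where the middle lay lower, the balance shifts towards lower genes. Of the 6599 called genes, 6412 (97.2%) had poly(I:C) and control libraries that did not overlap. Of all tested genes, called or not, 75.9% did so, and a lack of overlap is therefore common here.

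**Figure D1:**
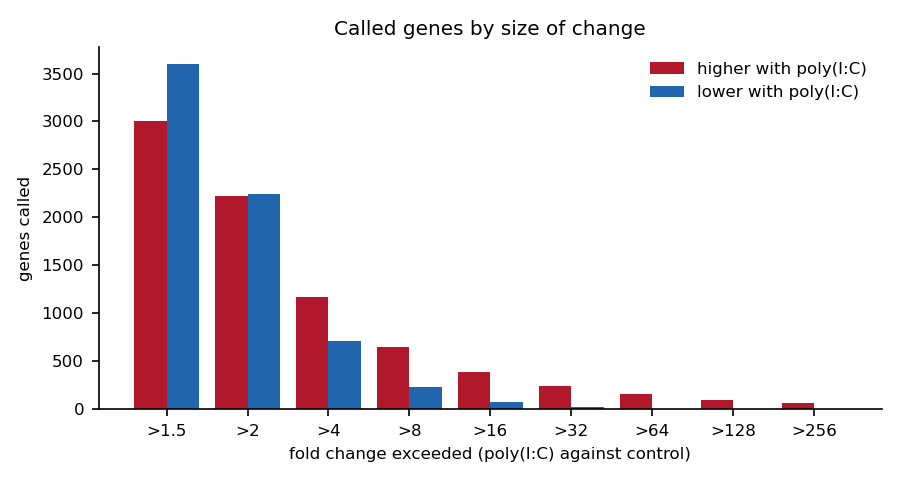
Number of genes called higher (left bar of each pair) or lower (right bar) in poly(I:C) than in control BMDMs, by the fold change they exceeded (x axis, cumulative classes; y axis, number of genes, from 0). Fold changes are on the TMM scale, the only one counted here. At over 2-fold the bars stand at 2219 and 2246 genes, and from over 4-fold on the higher genes outnumber the lower ones.

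Some interferon-stimulated transcripts rose to ranks among the most abundant transcripts of the cell. By mean TPM, Lyz2 (lysozyme), Fth1 (ferritin heavy chain) and mt-Co1 (a mitochondrial oxidase subunit) held ranks 1, 2 and 3 in both groups. Rsad2, the gene of viperin, an enzyme that makes a chain-terminating nucleotide, stood at rank 6 in poly(I:C) cells and 865 in control cells. Ifit3 and Ifit2, which belong to a family of proteins that bind foreign RNA ends, stood at ranks 7 and 8 in poly(I:C) cells and 161 and 383 in control cells. Cxcl10, a chemokine for activated T cells, stood at rank 20 in poly(I:C) cells and 6429 in control cells, and Acod1, the enzyme that makes itaconate, at rank 25 in poly(I:C) cells and 7534 in control cells. At the other end, 5651 genes were above 10 TPM in poly(I:C) cells and 7506 in control cells, while 161 genes in poly(I:C) cells and 126 in control cells were above 1000 TPM.

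The sensors of double-stranded RNA were themselves raised. Of 29 listed sensors and adaptors, all tested, 27 were higher and 1 was lower, with a median log2 fold change of 2.52 against -0.08 over all genes. Tlr3 was at 965, 1010, 1104, 951 and 992 CPM in the poly(I:C) libraries and at 32.7, 30.5, 40.6, 39.0 and 29.3 CPM in the control libraries. The groups did not overlap, and the difference was 29.2-fold (log2 4.87 ± 0.12 SE, adjusted p = 3.8e-17). Ifih1, which encodes MDA5, was at 3204, 3515, 3541, 2931 and 2911 CPM in the poly(I:C) libraries and at 106, 116, 145, 139 and 83.2 CPM in the control libraries, 27.4-fold higher (log2 4.77 ± 0.15 SE, adjusted p = 5.7e-16). Ddx58, which encodes RIG-I, was 10.3-fold higher and Dhx58, which encodes their relative LGP2, was 6.92-fold higher. Eif2ak2, the kinase PKR that halts translation on double-stranded RNA, was 6.27-fold higher.

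The 1 member that fell was Mavs, the adaptor shared by RIG-I and MDA5, at 17.2, 17.9, 17.5, 19.7 and 18.4 CPM in the poly(I:C) libraries and 60.8, 51.1, 61.6, 57.6 and 60.2 CPM in the control libraries. Every poly(I:C) library was below every control library, and Mavs was 3.21-fold lower (log2 -1.68 ± 0.06 SE, adjusted p = 3.0e-15). The list also separated the 2 agonists. Against CL075, 23 of the 29 were higher with poly(I:C) (22.7% of all tested genes were) and 1 was lower (23.7% of all tested genes were). Tlr3 averaged 1004 ± 60.2 CPM with poly(I:C), 34.0 ± 6.15 CPM with CL075 and 34.4 ± 5.08 CPM in control cells (SD, n = 5 each). Tmem173, which encodes the DNA-sensing adaptor STING, was at 139 ± 9.79 CPM with poly(I:C), 11.8 ± 1.30 CPM with CL075 and 51.8 ± 4.80 CPM in control cells, so that poly(I:C) raised it 2.68-fold where CL075 lowered it, and the difference between the agonists was log2 3.55 ± 0.08 (SE, adjusted p = 2.3e-17). Of the single-stranded RNA and DNA receptors, Tlr7 was 3.05-fold higher with poly(I:C), and Tlr9, which reads unmethylated DNA, was 5.63-fold higher, whereas CL075 lowered it.

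Of 27 listed genes of interferons and their receptors only 10 had enough reads to be tested, and 6 were higher and 1 was lower. The 6 include Ifna2, Ifna4 and Ifna5, which had no read in control or CL075 libraries. They passed the read filter only through the poly(I:C) libraries, so their direction was set in advance. Ifnb1, interferon-β, was at 32, 32.2, 32.6, 31.3 and 30.01 CPM in the poly(I:C) libraries and at 0, 0.0531, 0.0271, 0.0286 and 0.0232 CPM in the control libraries, where 4 libraries held a few reads each. The fitted log2 difference was 10.00 ± 0.21 (SE, adjusted p = 4.1e-18). CL075 cells had 0.493 ± 0.257 CPM, and poly(I:C) exceeded them by log2 5.97 ± 0.15 (SE). Ifna2, Ifna4 and Ifna5, interferon-α genes, had no read in any control library and were at least 148-fold, 143-fold and 147-fold higher with poly(I:C), taking 3 reads over the 5 control libraries as the floor. The Ifna genes are near copies of one another, and reads that fit several of them were kept by the counting at up to 5 places, so how the signal divides among them is uncertain.

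Of the receptors, Ifngr1, the ligand-binding chain of the interferon-γ receptor, was at 24.6, 24.7, 26.3, 24.8 and 24.3 CPM in the poly(I:C) libraries and at 245, 252, 271, 250 and 259 CPM in the control libraries. It was 10.2-fold lower with no overlap (log2 -3.36 ± 0.05 SE, adjusted p = 2.0e-19), and CL075 cells, at 83.0 ± 6.16 CPM, lay between the groups. Ifnar2, a chain of the receptor for interferon-α and -β, was at 143 ± 7.15 CPM with poly(I:C) and 125 ± 2.83 CPM in control cells and was not called, and with library totals its difference turned negative (log2 -0.74).

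The signalling chain behind the receptor rose with its targets. Of 19 tested STATs, Janus kinases and interferon regulatory factors, 13 were higher and 2 were lower, with a median log2 fold change of 1.92. Irf7, the factor that drives the interferon-α genes, was at 2246, 2178, 2205, 2556 and 2566 CPM in the poly(I:C) libraries and at 143, 139, 164, 168 and 150 CPM in the control libraries, 15.4-fold higher (log2 3.94 ± 0.12 SE, adjusted p = 3.6e-16). Jak2, a kinase of cytokine receptors, was 14.1-fold higher and Stat2 was 5.21-fold higher. Irf1, a factor acting downstream of interferon-γ and NF-κB, was at 671 ± 27.2 CPM with poly(I:C), 73.9 ± 11.4 CPM with CL075 and 67.5 ± 5.93 CPM in control cells. It was 9.93-fold higher with poly(I:C) and was not called with CL075, and the agonists were log2 3.18 ± 0.09 apart (SE, adjusted p = 2.9e-16). Irf4, a factor of alternatively activated macrophages, was 2.44-fold lower.

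Brakes on signalling were raised too, though not as one block. Of 35 genes listed as feedback inhibitors, 24 were higher, 5 were lower and 6 were not called. Socs1, which blocks Janus kinases, was at 61.0, 71.5, 64.5, 81.6 and 76.7 CPM in the poly(I:C) libraries and at 0.287, 0.212, 0.217, 0.286 and 0.139 CPM in the control libraries. It was 311-fold higher (log2 8.28 ± 0.17 SE, adjusted p = 3.1e-18). Usp18, which removes ISG15 from proteins and shields the interferon receptor, was 34.2-fold higher. The 5 lower members were Dusp6, Irak4, Nlrc3, Pdcd4 and Zfp36l1, of which Pdcd4, a repressor of translation, was 15.6-fold lower. Irak4, though listed, encodes a kinase that passes TLR signals on, so its fall is not the loss of a brake. Some genes of the list, not all of them plain brakes, stood higher in CL075 cells. Irak3, an inhibitor of TLR adaptors, was at 70.2 ± 5.96 CPM with poly(I:C) and 600 ± 17.5 CPM with CL075, a log2 difference of -3.10 ± 0.05 (SE, adjusted p = 1.1e-18). Nfkbiz, a nuclear partner of NF-κB, differed in the same direction, by log2 -2.12, while Socs1 differed by log2 5.07 in favour of poly(I:C).

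Antiviral effectors made up the most uniform group. Of 65 listed genes 64 were tested, 60 were higher, none was lower and the remaining 4 were not called, with a median log2 fold change of 3.78. As a share of all gene counts they held 13.1% to 14.1% in the poly(I:C) libraries and 1.02% to 1.54% in the control libraries (means 13.6% and 1.30%). Rsad2 was at 25707, 29681, 27858, 23730 and 25589 CPM in the poly(I:C) libraries and at 142, 210, 279, 249 and 118 CPM in the control libraries. Cmpk2, a mitochondrial nucleotide kinase whose gene lies beside Rsad2, was at 13902 ± 739 CPM with poly(I:C) and 92.0 ± 28.8 CPM in control cells, 151-fold higher. Ifi205, a DNA-binding protein of the interferon-inducible p200 family, was at 4208 ± 412 CPM with poly(I:C) and 6.04 ± 2.76 CPM in control cells, 698-fold higher. Smaller rises were seen for Oas1a, a maker of 2-5A, at 5.66-fold, for Adar, an editor of double-stranded RNA, at 5.26-fold (16.8% of its exonic sequence lies opposite another gene's exons) and for Bst2, which tethers budding viruses, at 2.99-fold.

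The control libraries differed among themselves over these genes far more than the poly(I:C) libraries did. For the 60 raised effectors the highest control library was at the median 1.73 times the lowest, against 1.15 times within the poly(I:C) group, and the median coefficient of variation was 22.5% among control libraries and 5.60% among poly(I:C) libraries. Over all 7508 tested genes at 10 CPM or more in control cells the same ratios were 1.18 in poly(I:C) libraries and 1.15 in control libraries. The direction was shared: control library 5 was the lowest in 51 of the 60 genes (85%, against 34.5% of the 7508), and control library 3 or 4 was the highest in 98.3%, against 44.6% of the 7508. The Mx1 transcript, for example, was at 5988, 6571, 6884, 5863 and 5891 CPM in the poly(I:C) libraries and at 98.7, 118, 184, 177 and 82.0 CPM in the control libraries. The fold change of a member therefore depends on which control library it is set against.

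**Figure D2:**
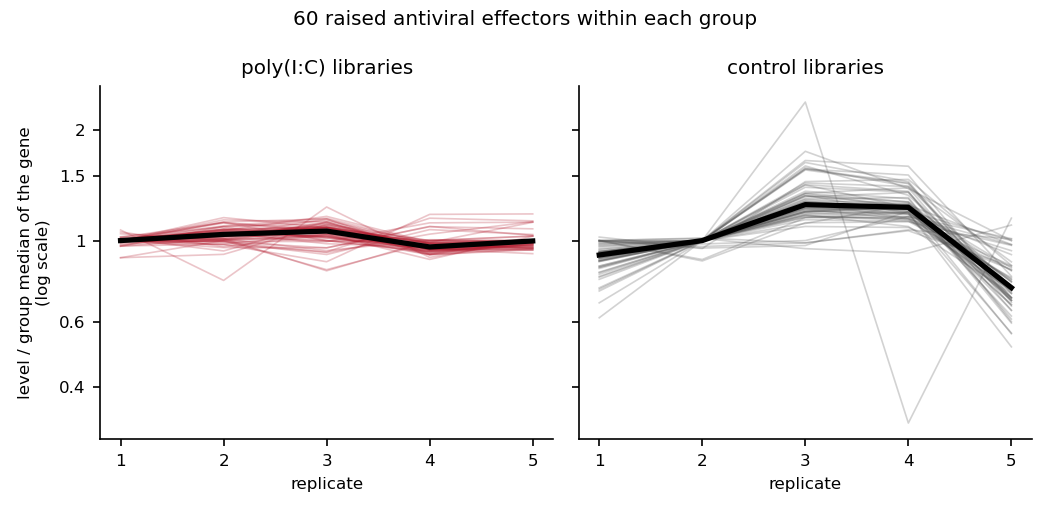
Level of each of the 60 raised antiviral effectors in each library, divided by the gene's median within its group (y axis, log scale; 1 line per gene), for the 5 poly(I:C) libraries (left panel) and the 5 control libraries (right panel), with the median over genes as a thick line. The control lines dip at library 5 and peak at libraries 3 and 4, and their median highest-to-lowest ratio of 1.73 compares with 1.15 in the poly(I:C) panel.

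The promoters of some of these genes carry the sequence that interferon regulatory factors are known to bind. The stretches below, from the RefSeq promoter table for GRCm38.p6, are shown as examples of matches, for 6 strongly raised antiviral and chemokine genes and for Il6 and Cxcl1; they were chosen because they hold a match. The search covered the 250 bases before each start on both strands for the core of the interferon-stimulated response element (GAAA, 2 free bases, GAAA) and for a form of the NF-κB site (GGGA, 1 free base, TTTCC), and capitals mark the matches. The first motif was found in 3.04% of all 27025 promoters of the table and the NF-κB form in 0.337%. Of 175 searched promoters of genes over 32-fold higher, 29 held the first motif and 4 the second, so most of them held neither in this window. Of 4108 promoters of genes not called 99 held the first motif and 14 the second, and of 9256 promoters of all tested genes 281 and 37 did. Only 78.4% of the tested genes had a promoter in the table, so these counts are descriptions and no test was made between gene classes. A match is no proof that a factor binds there. Rsad2 is on the minus strand at chr12:26456528-26456607, Ifit1 on the plus strand at chr19:34640750-34640848, Ifit3 on the plus strand at chr19:34583338-34583451, Isg15 on the minus strand at chr4:156200840-156200931, Cxcl10 on the minus strand at chr5:92349058-92349137, Gbp5 on the plus strand at chr3:142496734-142496901, Il6 on the plus strand at chr5:30013035-30013113 and Cxcl1 on the plus strand at chr5:90891139-90891218.
Rsad2: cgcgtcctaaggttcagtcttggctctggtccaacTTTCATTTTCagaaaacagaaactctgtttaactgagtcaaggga
Ifit1: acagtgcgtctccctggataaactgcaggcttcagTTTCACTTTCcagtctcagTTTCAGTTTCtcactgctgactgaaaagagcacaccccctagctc
Ifit3: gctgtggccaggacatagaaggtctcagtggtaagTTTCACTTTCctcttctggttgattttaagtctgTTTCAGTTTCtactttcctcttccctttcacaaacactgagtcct
Isg15: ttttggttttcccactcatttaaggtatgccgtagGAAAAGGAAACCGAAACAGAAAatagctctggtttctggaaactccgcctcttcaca
Cxcl10: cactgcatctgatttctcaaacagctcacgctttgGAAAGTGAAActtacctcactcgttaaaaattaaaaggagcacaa
Gbp5: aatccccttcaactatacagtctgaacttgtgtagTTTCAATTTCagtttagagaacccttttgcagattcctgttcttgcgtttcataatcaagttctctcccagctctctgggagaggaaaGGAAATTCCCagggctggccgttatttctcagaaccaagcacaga
Il6: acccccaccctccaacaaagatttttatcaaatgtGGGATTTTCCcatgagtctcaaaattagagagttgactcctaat
Cxcl1: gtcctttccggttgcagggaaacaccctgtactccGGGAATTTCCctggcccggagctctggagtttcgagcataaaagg

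Rsad2 shows 1 interferon-type match, Ifit1 and Ifit3 show 2 each, and Isg15, a ubiquitin-like modifier, shows 3 that overlap in 1 run. Ifit1 was 49.3-fold, Ifit3 23.9-fold and Isg15 30.7-fold higher with poly(I:C). Gbp5, a GTPase that attacks vacuoles of microbes, shows a match to each motif and was 260-fold higher. Il6 and Cxcl1 show the NF-κB form alone within this window, and, as given below, they went different ways between the agonists. Ifit3 and its near copy Ifit3b share sequence, so the division of reads between them is uncertain.

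Some raised genes were neighbours. Of the 1165 genes over 4-fold higher, 114 lay in 21 runs of at least 4 such genes, and of the 705 genes over 4-fold lower, 16 lay in 4 runs, lists of unequal length between which no test was made. On chromosome 5 the run Cxcl9, Art3, Cxcl10 and Cxcl11 (chr5:92321347-92414628, GRCm38) held 4 tested genes, all higher. On chromosome 11, all 6 Schlafen genes from Slfn5 to Slfn4 (chr11:82951349-83190216) and all 4 chemokine genes Ccl2, Ccl7, Ccl12 and Ccl8 (chr11:82035571-82116799) were higher. On chromosome 14, Setdb2, a histone methyltransferase, and Rcbtb1 rose with the Phf11 genes between them (chr14:59201209-59440884). On chromosome 19, the checkpoint ligand genes Cd274 and Pdcd1lg2 lay with Jak2 and Insl6 in a run of 4 genes over 4-fold higher (chr19:29251828-29471157). Members of the Slfn, Phf11 and Ifit families are close copies and can share reads.

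Of 24 tested chemokine genes 15 were higher and 4 were lower, and those that rose included attractants of T cells, monocytes and neutrophils. Cxcl9, a ligand of CXCR3, was at 1964, 1973, 2421, 2068 and 2607 CPM in the poly(I:C) libraries and at 0.802, 0.663, 1.54, 0.514 and 1.04 CPM in the control libraries. It was 2386-fold higher with poly(I:C) (log2 11.22 ± 0.21 SE, adjusted p = 7.4e-19), while CL075 cells had 2.31 ± 0.567 CPM. Cxcl10 was 773-fold and Ccl5, an attractant of T cells and monocytes, 416-fold higher. Cxcl11 had the largest fold change of all genes, at 547 ± 52.6 CPM with poly(I:C) and 0.0994 ± 0.104 CPM in control cells. The gene annotation classes it as a polymorphic pseudogene, so its transcript may yield no working chemokine. In addition, 41.7% of its exonic sequence lies opposite another gene's exons. Ccl2 and Ccl12, monocyte attractants, were 97.1-fold and 244-fold higher.

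The neutrophil attractants Cxcl1, Cxcl2 and Cxcl3 were lower with poly(I:C) than in CL075 cells. Cxcl1 was at 0.912, 0.657, 0.384, 0.235 and 0.259 CPM in the poly(I:C) libraries and at 0.0860, 0.186, 0.0541, 0.0286 and 0.163 CPM in the control libraries, a 4.35-fold difference on very few reads that was not called without poly(I:C) library 1 (adjusted p = 0.059), while CL075 cells had 27.1 ± 8.62 CPM. Poly(I:C) cells were thus lower than CL075 cells by log2 -5.81 ± 0.31 (SE, adjusted p = 3.3e-12). Cxcl2 was at 7.63 ± 2.57 CPM with poly(I:C), 165 ± 32.3 CPM with CL075 and 0.976 ± 0.352 CPM in control cells. Cxcl3 was at 0.124 ± 0.108 CPM with poly(I:C), 47.6 ± 14.4 CPM with CL075 and 0.162 ± 0.121 CPM in control cells, and its poly(I:C) and control libraries overlapped.

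**Figure D3:**
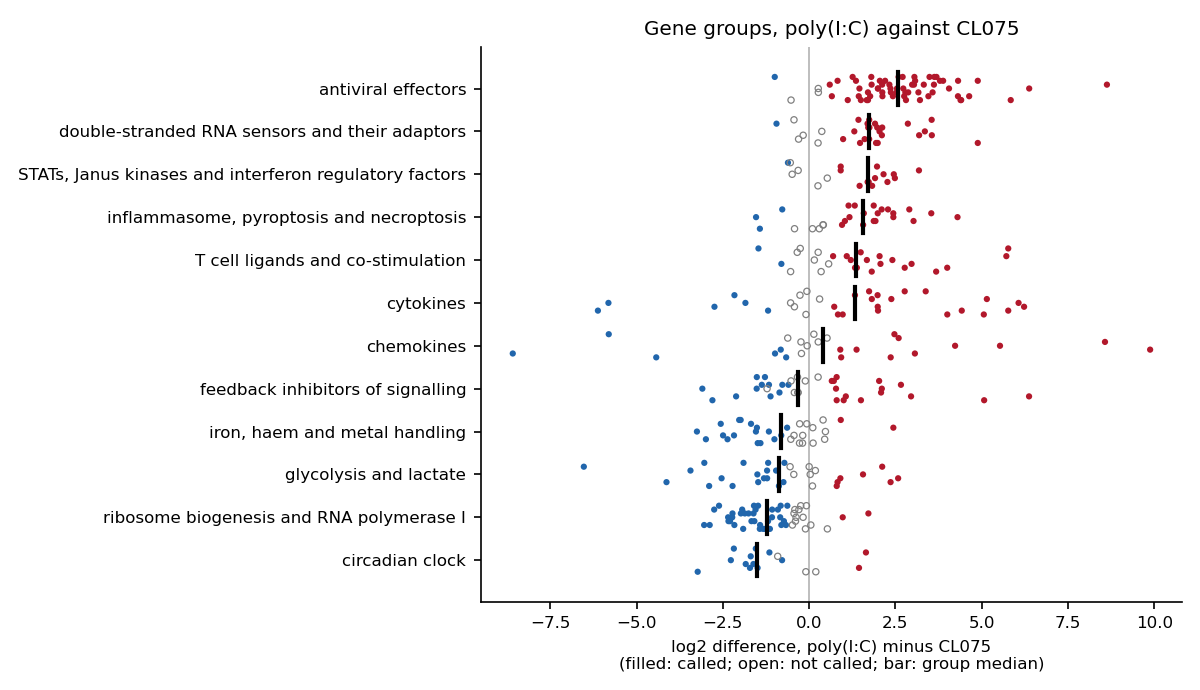
Difference between poly(I:C) and CL075 BMDMs (x axis, log2, positive values higher with poly(I:C)) for each tested gene of 12 gene groups (rows), with called genes as filled points, genes not called as open points and the group median as a black bar. The antiviral effectors and sensors lie mostly right of 0, ribosome biogenesis and glycolysis genes lie mostly left of it, and the chemokine and cytokine rows reach far to both sides.

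Cytokine genes divided in the same manner. Of 31 tested, 21 were higher and 2 were lower with poly(I:C), with a median log2 fold change of 4.17. Il6 was at 103, 116, 128, 113 and 106 CPM in the poly(I:C) libraries and at 0, 0.159, 0.0271, 0.0286 and 0.0232 CPM in the control libraries, and it exceeded CL075 cells (28.6 ± 5.83 CPM) by log2 1.98 ± 0.12 (SE, adjusted p = 1.3e-11). Tnf was at 134 ± 14.9 CPM with poly(I:C), 143 ± 11.2 CPM with CL075 and 3.75 ± 0.425 CPM in control cells, and the agonists differed by log2 -0.09 ± 0.07 (SE), which did not pass the test. Il27, a cytokine that restrains T cells, was at 85.2 ± 9.26 CPM with poly(I:C) and 2.39 ± 0.517 CPM with CL075. Il10, which dampens macrophages, was at 230 ± 17.2 CPM with poly(I:C) and 22.1 ± 5.16 CPM with CL075.

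Il1b and Il1a, the genes of interleukin-1 itself, were lower with poly(I:C) than in CL075 cells. Il1b was at 25.2, 26.5, 36.6, 22.5 and 24.3 CPM in the poly(I:C) libraries and at 7.77, 10.0, 16.6, 11.8 and 14.1 CPM in the control libraries, 2.23-fold higher, while CL075 cells held 1519 ± 276 CPM. The difference between the agonists was log2 -5.82 ± 0.20 (SE, adjusted p = 4.0e-15). Il1rn, the secreted antagonist of the interleukin-1 receptor, was at 4756 ± 379 CPM with poly(I:C), 1351 ± 257 CPM with CL075 and 60.9 ± 8.60 CPM in control cells, 78.1-fold higher with poly(I:C). Il1a was 21.9-fold higher with poly(I:C) than in control cells and differed from CL075 cells by log2 -2.74. Csf3, the neutrophil growth factor, was not called with poly(I:C), at 0.122 ± 0.0619 CPM against no read in control cells, and was at 8.61 ± 1.78 CPM with CL075.

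Il15 and its receptor chain Il15ra were raised by poly(I:C). Il15, a survival factor of NK and memory T cells, was at 392, 420, 425, 361 and 373 CPM in the poly(I:C) libraries and at 19.3, 21.2, 25.5, 25.3 and 18.4 CPM in the control libraries, 18-fold higher. Il15ra, the chain that presents it to other cells, was at 335 ± 10.6 CPM with poly(I:C), 4.91 ± 0.830 CPM with CL075 and 3.81 ± 0.478 CPM in control cells, 87.9-fold higher. With CL075 neither was called, and poly(I:C) exceeded CL075 by log2 4.42 ± 0.13 and 6.09 ± 0.09 (SE). Il18bp, the decoy of interleukin-18, was 9.82-fold higher with poly(I:C). Csf1, the growth factor that the culture medium supplies, was at 204 ± 7.88 CPM with poly(I:C) and 2.48 ± 0.891 CPM in control cells, 83.3-fold higher. Il16, a ligand of CD4, was 9.23-fold lower, with 17.4% of its exonic sequence opposite another gene's exons.

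**Figure D4:**
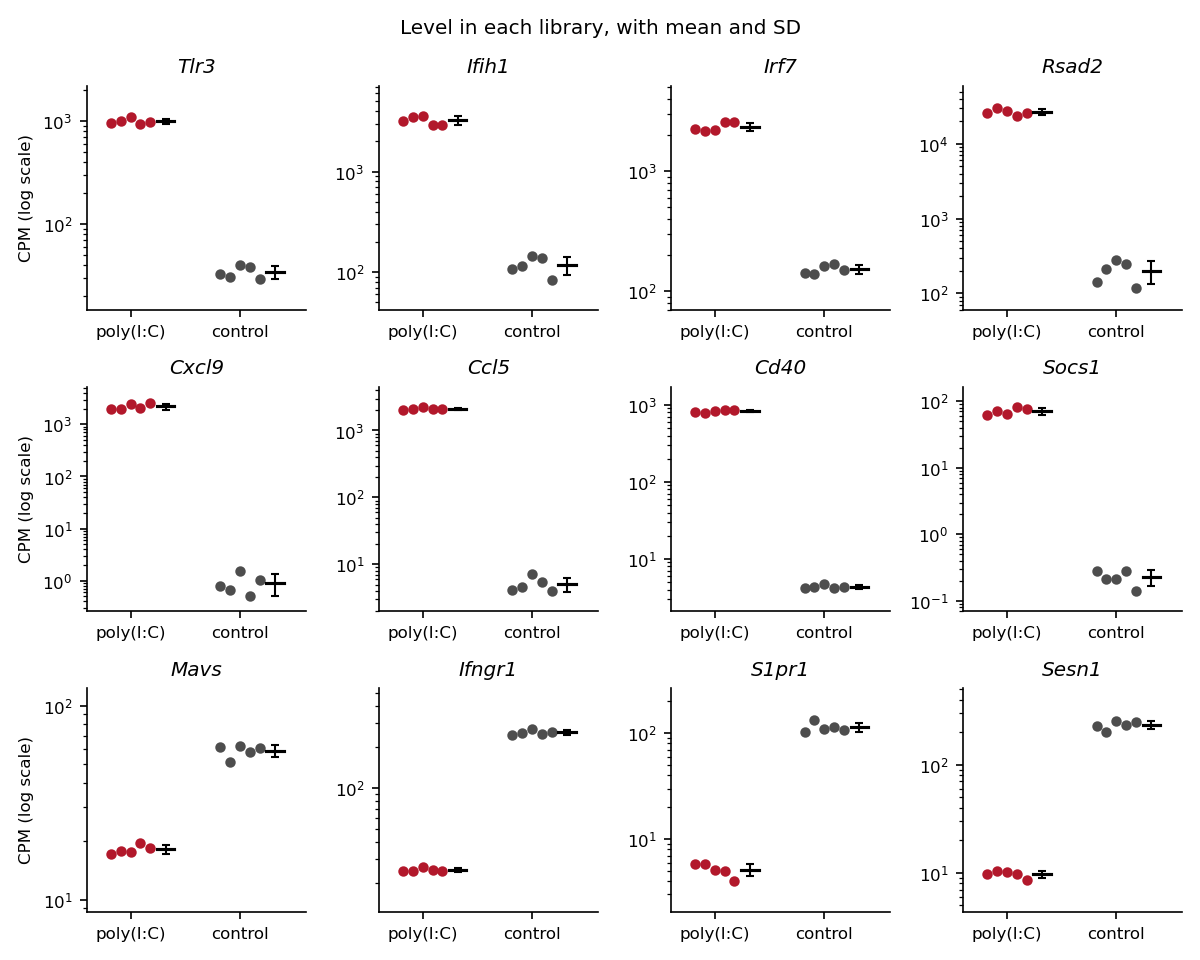
Level of 12 genes in each library (y axis, CPM, log scale), poly(I:C) libraries at the left and control libraries at the right of each panel, with the mean and SD as a bar and whisker. In each panel the 5 poly(I:C) points and the 5 control points do not overlap, with Cxcl9 2386-fold higher and Sesn1 24.1-fold lower.

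Ligands and receptors for T cells changed strongly. Of 26 tested ligands and co-stimulators, 19 were higher and 3 were lower. Cd40, which receives the CD40L signal, was at 808, 793, 841, 852 and 856 CPM in the poly(I:C) libraries and at 4.16, 4.27, 4.71, 4.17 and 4.32 CPM in the control libraries. It was 192-fold higher with no overlap (log2 7.58 ± 0.15 SE, adjusted p = 1.8e-18). Cd86, a ligand of CD28, was 9.69-fold higher with poly(I:C) and was not called with CL075, and Cd80, the other ligand, was 2.54-fold higher. Cd274, which encodes the inhibitory ligand PD-L1, was 63.5-fold higher (14.1% of its exonic sequence lies opposite another gene's exons). Tnfsf10, the death ligand TRAIL, was 129-fold higher with poly(I:C) and exceeded CL075 by log2 6.07. Cd69, an early activation marker best known from lymphocytes, was at 1957, 2349, 2149, 1881 and 1904 CPM in the poly(I:C) libraries and at 1.605, 2.10, 2.68, 2.49 and 1.81 CPM in the control libraries. Its fold change of 959 was larger than that of any T cell ligand named here, and Il2ra, the high-affinity chain of the interleukin-2 receptor, was 286-fold higher.

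Receptors that guide movement were rearranged. Of 25 tested chemokine and attractant receptors, 13 were higher and 7 were lower (9 and 8 with library totals). S1pr1, which draws cells along sphingosine 1-phosphate, was at 5.77, 5.80, 5.15, 4.99 and 4.06 CPM in the poly(I:C) libraries and at 103, 133, 108, 114 and 108 CPM in the control libraries, 22.1-fold lower (log2 -4.46 ± 0.14 SE, adjusted p = 9.1e-16). Cxcr4, the receptor for the marrow chemokine CXCL12, was 9.40-fold lower and Cx3cr1, the fractalkine receptor, was 7.54-fold lower. Cxcr3, the receptor of Cxcl9 and Cxcl10, was 21.1-fold lower. Among the higher ones, Ccrl2, which holds chemerin at the cell surface, was 65.3-fold and the formyl peptide receptor gene Fpr2 was 23.9-fold higher. The purinergic receptor genes P2ry12, P2ry13 and P2ry14, neighbours on chromosome 3 that sense extracellular nucleotides and nucleotide sugars, separated the agonists. P2ry14 was at 180, 180, 182, 180 and 181 CPM in the poly(I:C) libraries and at 15.6, 14, 21.3, 21.5 and 17.3 CPM in the control libraries, 10.1-fold higher, and was at 4.97 ± 1.36 CPM with CL075. P2ry12 and P2ry13 were 3.60-fold and 11.3-fold higher with poly(I:C), whereas CL075 lowered both, with log2 differences between the agonists of 5.22 ± 0.17 and 5.67 ± 0.16 (SE).

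Some genes appeared where control cells had no read at all. Of 37 tested genes with 0 reads in all 5 control libraries, 25 were called higher, and 3 genes with 0 reads in all 5 poly(I:C) libraries were called lower. Such genes passed the read filter only through the other libraries. Their direction was therefore set by the choice, and these counts only describe them. With 3 reads over the 5 control libraries as the floor, Ubd, the ubiquitin-like modifier FAT10, was at least 320-fold higher. Meikin, known as a meiosis-specific kinetochore protein, was at least 312-fold higher and Oprd1, the delta opioid receptor, at least 259-fold higher. Edn1, endothelin, was at least 218-fold higher, Ptx3, a secreted pattern recognition protein, at least 140-fold, and Steap4, a metal reductase, at least 88.3-fold higher. Among genes with a few control reads, the LIM homeobox gene Lhx2 was at 47, 49.7, 49.99, 53.2 and 63.2 CPM in the poly(I:C) libraries and at 0.0860, 0.0265, 0.162, 0.0857 and 0.0232 CPM in the control libraries. It was 667-fold higher, was not called with CL075, and differed between the agonists by log2 7.19 ± 0.15 (SE, adjusted p = 5.8e-18). Angpt1, a ligand of the endothelial receptor TIE2, showed the same contrast at 62.7 ± 5.27 CPM with poly(I:C), 0.295 ± 0.0845 CPM with CL075 and 0.130 ± 0.0496 CPM in control cells, with 14.2% of its exonic sequence opposite another gene's exons. Tnfaip8l3, a phosphoinositide carrier, was 872-fold higher with poly(I:C), Lipg, endothelial lipase, 1601-fold and Upp1, uridine phosphorylase, 779-fold.

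Cell death genes were mostly raised. Of 27 tested genes of inflammasomes, pyroptosis and necroptosis 21 were higher and 4 were lower, and of 29 genes of apoptosis and the BCL2 family 17 were higher and 2 were lower. Casp4, which senses cytosolic lipopolysaccharide, was 39.2-fold higher and Casp1, which processes interleukin-1, was 12.2-fold higher. Zbp1, which senses Z-form nucleic acids, and Mlkl, the executioner of necroptosis, were 13.1-fold and 13.2-fold higher. Aim2, a sensor of cytosolic DNA, was at 338 ± 26.9 CPM with poly(I:C), 29.0 ± 2.84 CPM with CL075 and 48.3 ± 4.96 CPM in control cells. Casp12 was 57.8-fold higher with poly(I:C) and was not called with CL075. Of 20 tested p53 response genes, 7 were higher and 6 were lower (6 and 13 with library totals). Of all tested genes, 25.4% were higher and 30.5% were lower. Mdm2, which degrades p53, was 8.95-fold and Cdkn1a, the CDK inhibitor p21, 6.03-fold higher, while the sestrins, stress-induced regulators of growth signalling, split. Sesn3 was 7.61-fold higher and Sesn1 was at 9.72, 10.3, 10.2, 9.70 and 8.61 CPM in the poly(I:C) libraries and at 230, 203, 256, 232 and 248 CPM in the control libraries, 24.1-fold lower.

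The 2 routes of antigen presentation differed. Of 27 tested genes of MHC class I chains and peptide supply 24 were higher and none was lower, and their activator Nlrc5 was 16.8-fold higher (log2 4.07 ± 0.13 SE). Of 14 tested MHC class II genes 6 were higher and 4 were lower (2 and 7 with library totals), and their activator Ciita was at 3.09, 2.63, 3.07, 2.97 and 3.63 CPM in the poly(I:C) libraries and at 15.2, 10.9, 10.1, 13 and 13.6 CPM in the control libraries, 4.06-fold lower (log2 -2.02 ± 0.13 SE, adjusted p = 2.7e-11). CL075 cells held still less Ciita, at 0.580 ± 0.142 CPM. Of the 43 constitutive proteasome genes 20 were higher and 1 was lower, with a median log2 fold change of 0.43, and with library totals the count turned round to 2 higher and 20 lower. Psmb9, a subunit of the immunoproteasome, was 6.30-fold higher.

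Genes of arginine and tryptophan metabolism moved in both directions. Of 19 tested genes of arginine and nitric oxide metabolism 9 were higher and 4 were lower (6 and 9 with library totals). Slc7a2, the arginine importer, was 62.1-fold and Ass1, which rebuilds arginine from citrulline, 24.5-fold higher. In tryptophan breakdown and NAD synthesis 10 of 20 were higher and 7 were lower. Kynu, kynureninase, was at 31.7, 26.6, 34.8, 31.5 and 31.9 CPM in the poly(I:C) libraries and at 0.344, 0.424, 0.596, 0.486 and 0.371 CPM in the control libraries, 70.0-fold higher, and Kmo, the enzyme before it, was 8.37-fold higher. CL075 lowered Kmo, and the agonists were log2 5.44 ± 0.12 apart (SE, adjusted p = 1.9e-17). Ahr, the receptor for tryptophan products, was 9.55-fold lower with poly(I:C). Nampt, the enzyme that salvages NAD, was 8.07-fold and Cd38, which consumes it, 77.8-fold higher.

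Of 31 tested glycolysis genes, 10 were higher and 12 were lower with poly(I:C) than in control cells (6 and 18 with library totals), shares not far from those of all tested genes. Against CL075 cells, 7 were higher and 18 were lower, where 23.7% of all tested genes were lower. Pfkfb3, which makes the activator of glycolysis, was 7.21-fold higher with poly(I:C) and differed between the agonists by log2 0.03 ± 0.08 (SE). Egln3, an oxygen sensor and a known target of hypoxia-inducible factors, was at 0.304, 0.602, 0.274, 0.235 and 0.476 CPM in the poly(I:C) libraries and at 5.47, 9.47, 2.46, 3.54 and 3.39 CPM in the control libraries. It was 12.7-fold lower with poly(I:C), while CL075 cells held 35.3 ± 7.64 CPM. Of 31 tested genes of iron, haem and metal handling 9 were higher and 8 were lower (5 and 20 with library totals). These shares, too, were not far from those of all tested genes. Against CL075 cells 2 of the iron, haem and metal genes were higher and 17 were lower, beside the same 23.7%. Slc40a1, the iron exporter ferroportin, was 10.4-fold lower with poly(I:C). Hmox1, the haem-degrading enzyme, was at 379 ± 83.8 CPM with poly(I:C), 1546 ± 316 CPM with CL075 and 391 ± 88.1 CPM in control cells, with overlap between poly(I:C) and control.

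Sterol synthesis fell as a group. Of 29 tested genes of cholesterol synthesis and uptake 21 were lower and 2 were higher (1 higher without control library 5). Sqle, squalene epoxidase, was 6.55-fold lower and Hmgcs1, which makes the precursor of mevalonate, 5.08-fold lower, with 12.1% of its exonic sequence opposite another gene's exons. Stard4, a carrier of cholesterol, was at 4.66, 4.33, 4.17, 3.67 and 3.42 CPM in the poly(I:C) libraries and at 66.6, 77.2, 68.2, 75.6 and 62.2 CPM in the control libraries, 17.4-fold lower. Abcg1, which exports cholesterol, was 10.5-fold higher with poly(I:C) and was not called with CL075, whereas Rxra, the partner of the LXR receptors that drive it, was 12.1-fold lower. By contrast, of 71 tested nuclear genes of the respiratory chain and ATP synthase, 5 were higher and none was lower, and in the citric acid cycle 1 of 30 was higher and 5 were lower, whereas with library totals 49 respiratory chain genes and 27 citric acid cycle genes were lower. The 1 higher gene was Acod1, at 6764 ± 376 CPM with poly(I:C) and 8.06 ± 1.40 CPM in control cells, and among the lower ones Idh1, cytosolic isocitrate dehydrogenase, was 5.77-fold lower.

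**Figure D5:**
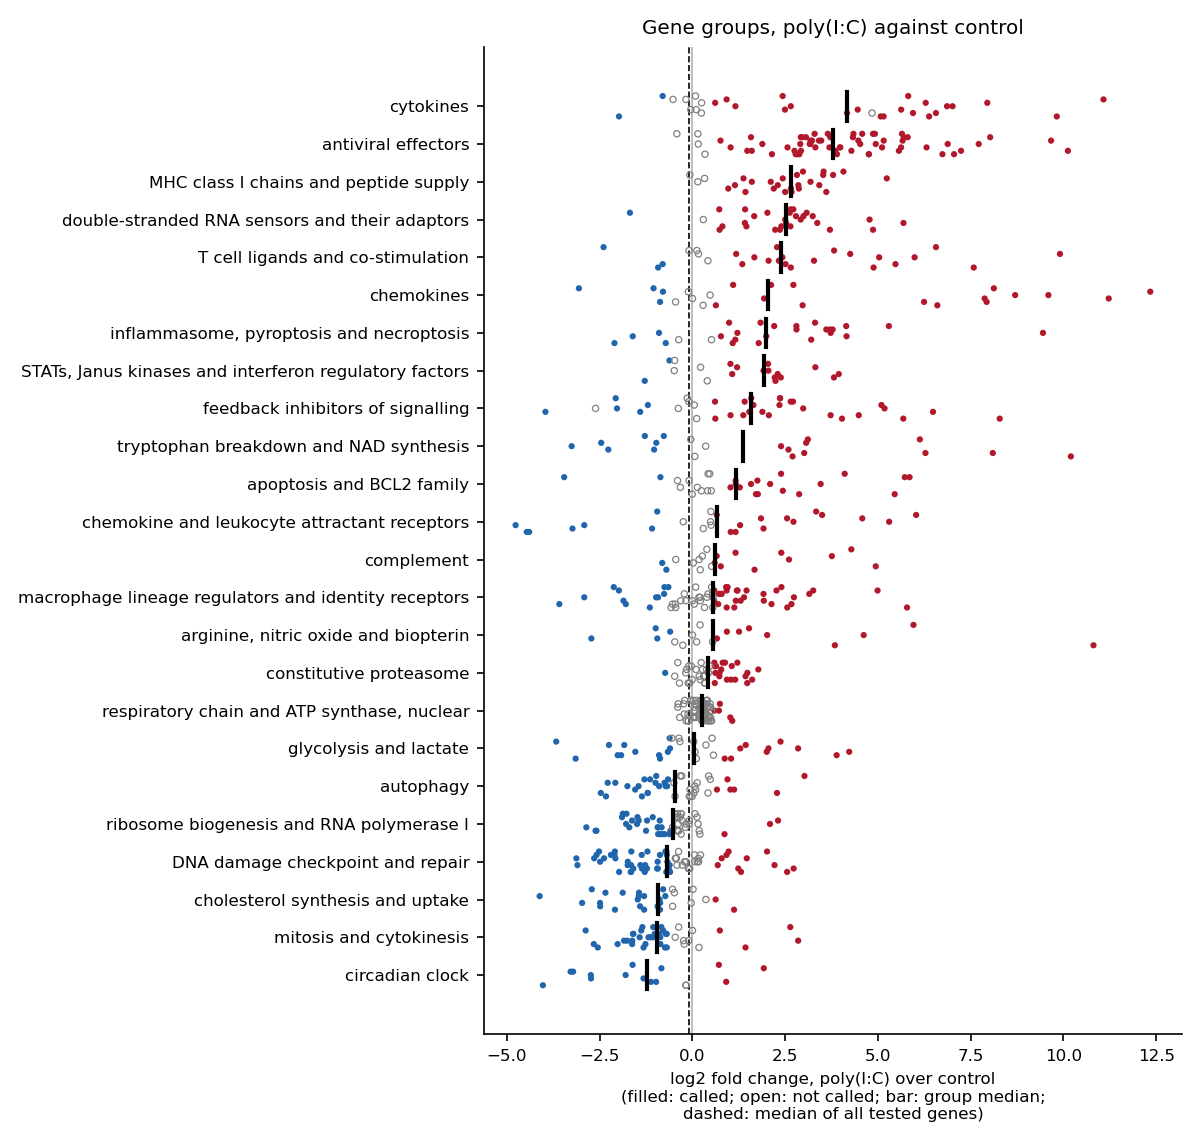
Log2 fold change of poly(I:C) over control BMDMs (x axis) for each tested gene of 24 gene groups (rows, ordered by median, 1 point per gene), with the group median as a black bar and the median of all tested genes, -0.08, as a dashed line. Cytokines and antiviral effectors head the plot with medians of 4.17 and 3.78, and the circadian clock stands last at -1.22.

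Lowered genes were spread over growth, division and gene regulation. The steepest among abundant genes after Engase, an enzyme that trims sugar chains off proteins, was Zfp395, a zinc finger protein, at 0.405, 0.547, 0.493, 0.612 and 0.519 CPM in the poly(I:C) libraries and at 31.0, 26.4, 31.2, 28.9 and 32.1 CPM in the control libraries, 57.5-fold lower (log2 -5.84 ± 0.11 SE, adjusted p = 8.5e-19). Prkag2, a regulatory subunit of the energy sensor AMPK, was 35.3-fold lower (14.5% of its exonic sequence lies opposite another gene's exons) and Deptor, an inhibitor of mTOR, was 17.2-fold lower. Tsc22d3, a glucocorticoid-induced repressor of inflammation, was 13.9-fold lower, and Klhl24, an adaptor of a ubiquitin ligase, 12.7-fold lower. Among genes whose symbols start with Zfp, mostly zinc finger proteins, 169 of 328 tested were lower and 33 were higher (280 and 13 with library totals), with a median log2 fold change of -0.68. Of 21 tested Mettl genes, mostly methyltransferases, 11 were lower and none was higher (20 lower with library totals).

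The circadian clock stood lowest of the plotted groups, with 11 of 16 tested genes lower, 3 higher and a median log2 fold change of -1.22. Per1 was at 6.33, 5.26, 4.93, 4.47 and 7.09 CPM in the poly(I:C) libraries and at 13.7, 13.8, 13.8, 12.8 and 16.1 CPM in the control libraries, 2.49-fold lower, and Per2 and Cry2, the other arms of the same negative limb, were 3.48-fold and 3.06-fold lower. Tef, an output factor of the clock, was 9.74-fold lower, while its antagonist Nfil3 was 3.79-fold higher. Per1, Per2 and Cry2 were not called with CL075, and each stood lower in poly(I:C) cells than in CL075 cells, with log2 differences of -1.61, -2.27 and -2.18. Dbp, a further clock output, was at 0.427 ± 0.250 CPM with poly(I:C) and 2.98 ± 0.282 CPM in control cells, 6.67-fold lower, with 18% of its exonic sequence opposite another gene's exons.

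The cell cycle genes gave a mixed account. Of 40 tested genes of mitosis and cytokinesis 29 were lower and 4 were higher, with a median log2 fold change of -0.96. Cdc20, the activator of the anaphase-promoting complex, was at 1.37, 0.931, 0.877, 1.22 and 1.08 CPM in the poly(I:C) libraries and at 8.14, 7.51, 7.28, 9.12 and 8.59 CPM in the control libraries, 7.35-fold lower. The spindle protein gene Tpx2 and the securin gene Pttg1 ran against the group, at 7.21-fold and 6.22-fold higher. Of 66 tested genes of DNA damage checkpoints and repair 40 were lower and 11 were higher (54 and 4 with library totals). Chek2, a checkpoint kinase, was 8.74-fold lower, whereas Atm, the kinase that activates it, was raised 5.87-fold by poly(I:C) and lowered by CL075, a difference between the agonists of log2 4.10 ± 0.08 (SE, adjusted p = 4.3e-18).

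At the entry to the cycle 11 of 35 tested genes were higher and 15 were lower (9 and 23 with library totals). Of all tested genes, 25.4% were higher and 30.5% were lower. Ccnd1, cyclin D1, was at 487, 592, 573, 511 and 562 CPM in the poly(I:C) libraries and at 24.4, 34.4, 31.2, 31.4 and 29.4 CPM in the control libraries, 18.1-fold higher, with 23.4% of its exonic sequence opposite another gene's exons. Ccnd2 was 122-fold and Ccne1, cyclin E1, 7.09-fold higher, and Rbl1, a member of the retinoblastoma family, 10.0-fold higher. The MYC network changed members: Myc was at 2.31 ± 0.582 CPM with poly(I:C), 29.3 ± 2.72 CPM with CL075 and 5.65 ± 1.16 CPM in control cells, while Mycl, its relative, was at 21.1 ± 4.00 CPM with poly(I:C), 0.114 ± 0.0502 CPM with CL075 and 0.120 ± 0.0392 CPM in control cells. Mxd1, an antagonist that competes for the partner MAX, was 68.2-fold higher, and the other antagonists Mxd4 and Mnt were 22.6-fold and 9.45-fold lower.

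Transcripts of ribosome production genes were mostly lower with poly(I:C) than in CL075 cells, as Myc was, and a link between them was not tested. Of 51 tested genes of ribosome biogenesis and RNA polymerase I, 25 were lower and 3 were higher with poly(I:C) than in control cells. With upper-quartile factors 39 were lower and with library totals 48. Against CL075 cells 37 were lower and 2 were higher, beside 23.7% lower and 22.7% higher of all tested genes. Nop58, a scaffold of small nucleolar RNA complexes, was at 7.04, 8.43, 7.89, 6.45 and 7.13 CPM in the poly(I:C) libraries and at 19.6, 23.4, 21.6, 19.6 and 18.7 CPM in the control libraries, 2.79-fold lower, and was at 49.6 ± 3.42 CPM with CL075. Polr1b, the second largest subunit of RNA polymerase I, was 6.00-fold lower. Wdr43 ran against the group at 4.26-fold higher. None of 49 genes whose symbols start with Rpl, most of them proteins of the large ribosomal subunit, was called in either direction, and their median log2 fold change was 0.15, although 48 of them were called lower with library totals.

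Of 40 tested autophagy genes 19 were lower and 6 were higher (31 and 2 with library totals). Ulk1 and Ulk2, the kinases that start autophagy, were 5.03-fold and 5.53-fold lower and Wipi1, which marks the forming membrane, was 4.22-fold lower, whereas the cargo receptors Optn and Tax1bp1 were 8.11-fold and 4.86-fold higher.

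Macrophage identity genes changed without a common direction. Of 62 tested lineage regulators and identity receptors 30 were higher and 12 were lower (12 and 26 with library totals). Cebpa, a factor of myeloid differentiation, was at 3.14, 3.83, 3.89, 4.14 and 4.15 CPM in the poly(I:C) libraries and at 43.2, 49.3, 44.6, 46.9 and 47.1 CPM in the control libraries, 12-fold lower, and Mef2c, a factor shared with neurons and muscle, was 3.47-fold lower. Fcgr1 and Fcgr4, activating Fc receptors, were 6.36-fold and 8.87-fold higher, and Clec4e, a receptor for mycobacterial glycolipids, was 55.1-fold higher. The receptors for dying cells rose with poly(I:C): Axl was 6.66-fold and Mertk 2.25-fold higher. Mertk was at 232 ± 12.5 CPM with poly(I:C), 24.7 ± 3.89 CPM with CL075 and 103 ± 7.34 CPM in control cells, a difference between the agonists of log2 3.23 ± 0.09 (SE, adjusted p = 2.2e-16). Timd4, a receptor for phosphatidylserine, was 31.8-fold higher from a low level, at 5.72, 5.15, 14, 15.1 and 11.3 CPM in the poly(I:C) libraries and at 0.0860, 0.186, 0.433, 0.514 and 0.371 CPM in the control libraries, where both groups spread about 3-fold or more. Of the other Toll-like receptors, Tlr11, which binds a profilin of parasites, was 39.2-fold higher and Tlr5, the flagellin receptor, was 3.81-fold lower. In the complement list 10 of 19 were higher and 2 were lower (6 and 7 with library totals), with C3, the central component, 19.5-fold higher.

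Markers of other cells were few. Of 8 tested dendritic cell markers 5 were higher and 1 was lower. The listed markers with too few reads to be tested had fewer reads with poly(I:C). Flt3 had 4 reads over the poly(I:C) libraries and 38 over the control libraries, Zbtb46 21 and 49, and Cd209a 0 and 3. The genes named next are among the higher ones. Clec9a, a receptor for dead cells on cross-presenting dendritic cells, was at 11.4, 10.7, 12.1, 11.8 and 14.6 CPM in the poly(I:C) libraries and at 0.201, 0.159, 0.162, 0.172 and 0.139 CPM in the control libraries, 71.5-fold higher. Itgae, which encodes CD103, was 8.08-fold higher, at 1.81 ± 0.187 CPM with poly(I:C) and 0.222 ± 0.0890 CPM in control cells, and Xcr1 was at 1.36 ± 0.380 CPM with poly(I:C) and was not called without poly(I:C) library 3. Whether these transcripts came from macrophages or from a few other cells was not tested.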

How the data were processed

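RNA-seq libraries were made from polyA RNA with a stranded kit and read from 1 end. For the count columns used here, the authors trimmed the reads, mapped them to GRCm38.p6 in CLC Genomics Workbench with up to 5 places per read and counted them per gene (raw counts in the deposited tables, without normalisation). The sources used here do not give the strand setting of that counting, so exonic overlap with other genes is stated beside the genes concerned. The deposited TPM values were scaled by transcript length and library by the authors and served only for the expression floor and for ranks. The submitters' processing notes also name HISAT2, featureCounts and edgeR, which made tables of the authors' own comparisons. Those fold change and p-value columns and 20 RPKM columns were not used.

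Counts of all 15 libraries were fitted in 1 model with edgeR 4.0.16 (R 4.3.3): filterByExpr, TMM factors, quasi-likelihood F test, Benjamini-Hochberg adjustment over 11804 genes. The SE was taken from the F statistic (size of the log2 difference over the root of F), which understates the error where counts are few. Genes were called at an adjusted p under 0.05, a fold over 1.5 and a mean TPM over 0.5 in a compared group. Shares of counts are given without a test. Gene groups were described by counts and medians, without a test of the group. The groups and members were chosen with earlier results of these data known. Genes were named from these groups, from the 25 largest folds in each direction at a mean of 10 CPM or more without overlap, from genes at 0 in all control libraries, from those with the largest gain or loss of reads, from runs of neighbouring genes (at least 4 genes over 4-fold, each starting within 100 kb of the one before) and from symbol families. Alternatives were other scalings (DESeq2 1.42.0 size factors, upper-quartile factors, library totals), no filter, the DESeq2 Wald test, glmTreat, only the 10 libraries, a replicate block, and leaving out each library. Some items are not reported here.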

Additional observations from a re-analysis of the deposited data

Results flagged for a closer look

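For the named genes, each group of 5 libraries was searched for a highest or lowest library whose gap to the next, divided by the range of the group, was over 0.71. Of 354 groups 17 had such a library (4.8%), and chance alone gives about 1 in 20. Poly(I:C) replicate 3 was the library set apart in 8 of the 17. It was the highest for Ahr (ratio 0.724), Ccnd2 (0.742), Ifngr1 (0.765), Il1b (0.717), P2ry13 (0.739) and Xcr1 (0.806), and the lowest for Ifna2 (0.854) and Il18bp (0.759). Among the other poly(I:C) libraries, replicate 4 was the highest for Il16 (0.756) and the lowest for Tlr5 (0.78), and replicate 5 was the lowest for Nlrc3 (0.762) and Tsc22d3 (0.778). Among control libraries, replicate 2 was the highest for Hmox1 (0.75), Il6 (0.82) and Myc (0.748), replicate 3 for Acod1 (0.914) and replicate 5 for Art3 (1.0). Without poly(I:C) replicate 3 the count over all genes was 2966 higher and 3636 lower, and of the genes named here Xcr1 alone lost its call.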

How the results depend on the processing

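The count of genes called with poly(I:C) against control depended most on the scale. It was 1546 higher and 7663 lower with library totals, against 3002 and 3597 with TMM, and against CL075 it was 1629 higher and 5631 lower, against 2684 and 2803. With library totals the sign turned for Ifnar2 (log2 -0.74) and Lyz2 (log2 -0.93), and 172 of the 182 named genes kept their direction and call. All 182 did so with DESeq2 size factors, the DESeq2 Wald test, glmTreat and no filter, as did the 179 fitted in the 10 libraries alone. Leaving out 1 library at a time gave 2966 to 3024 higher and 3560 to 3655 lower genes. Of 104 counts over gene groups, 42 stayed within 1.5 times with library totals, 79 with upper-quartile factors and 94 with glmTreat. The file names give the libraries of a number a common mark, as in WT1-ctrl, WT1-CL075 and WT1-PIC. This points to a pairing, though the labels do not say what the mark stands for. Poly(I:C) and control libraries of the same number deviated together in 4 of 5 pairs (r = 0.193, 0.296, 0.305, -0.004 and 0.268). Each poly(I:C) library of those 4 pairs correlated best with the control library of its own number, and number 4 did not. The main fit did not take the numbers as pairs. With a replicate block 3011 genes were higher and 3616 lower, and against CL075 2690 and 2812. Depth limits genes with few reads, such as Cxcl1 in both groups.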

Other observations

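Haemoglobin reads were concentrated in single libraries. Hba-a2 had 2, 3, 334, 0 and 0 reads in the poly(I:C) libraries, 1, 440, 406, 1 and 0 in the CL075 libraries and 0, 3, 0, 0 and 0 in the control libraries. Hbb-bs had 0, 0, 289, 0 and 9 reads in the poly(I:C) libraries, 3, 319, 333, 5 and 0 in the CL075 libraries and 2, 0, 0, 0 and 0 in the control libraries. Poly(I:C) library 3 and CL075 libraries 2 and 3 thus stood apart. On chromosome Y 2 genes were tested, and 2 were called higher with poly(I:C) than in control cells, with a median log2 fold change of 6.77. Whether the sex of the mice differed between the groups was not tested.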
